A study of Mus musculus with 12 samples.

Results

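Of the 17362 genes in the expression table, 36 were integrin, laminin or nidogen genes, picked by symbol alone (Itga, Itgb1 to Itgb8, Lama, Lamb, Lamc, Nid1 and Nid2). They comprised 24 integrins (18 alpha and 6 beta subunits), 10 laminin chains (4 alpha, 3 beta and 3 gamma) and 2 nidogens, and all 36 passed the filter on low values. Their RNA was sequenced in 4 populations that were sorted from crushed tibia, femur and iliac bone of untreated B6 mice, with 3 libraries per population out of 6 mice and cDNA made by a low-input method. The first population was CD200-high capillaries (CD200Hi, Sca1+, CD31+, EMCN-, CD45-). The second was type H vessels, an endomucin-rich bone vessel type (EMCN+, Sca1+, CD31+, CD45-). The third, called arterial here, was gated as CD45-, CD31+, Sca1+ and CD200- and labelled as other arterial cells, and the fourth was labelled sinusoidal (CD31+, Sca1+, CD45-). The last gate names no antigen that would leave out the other gates, and neither the arterial nor the sinusoidal label names endomucin. No allele, transgene or treatment is named for any group, and each library is described by a mouse number from 1 to 3.

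Laminins are trimers of 1 alpha, 1 beta and 1 gamma chain that polymerise into the sheet on which endothelium sits, the basement membrane, and nidogens link this sheet to the collagen IV network. Integrins are cell surface receptors made of an alpha and a beta subunit: the alpha subunit largely sets the ligand (laminin, collagen, fibronectin or a counter-receptor on another cell), and many alpha subunits pair with beta1. Endothelial basement membranes are built mainly on the alpha4 and alpha5 laminin chains, leukocytes carry beta2 integrins that bind ICAMs and complement, and megakaryocytes and platelets carry alphaIIb-beta3, the fibrinogen receptor.

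Levels are given as CPM, counts per 1e6 reads of the authors' effective library size, for replicates 1, 2 and 3 in that order. Differences are on the log2 scale of the deposited values (0.5 read added) with their standard errors, and adjusted p-values are from limma over 17086 genes. A difference was called at an adjusted p under 0.05. The libraries held 7.33 to 21.6 M reads (M, 1e6 reads), and the floor used for fold bounds was 3 reads per library. The bounds hold for the reads counted only: Itga4 had 0 reads in 1 CD200-high library and 29.4 CPM in another. The labels number the mice 1 to 3 in every population while naming 6 mice, and p-values measure the spread between these libraries only.

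Ly6a, which encodes the sorting antigen Sca1, was at 919, 1152 and 1491 CPM in CD200-high, 631, 489 and 368 CPM in type H and 804, 966 and 873 CPM in arterial libraries, against 12.7, 12.2 and 29.2 CPM in the libraries labelled sinusoidal. The last 3 lay far below the others although their gate is Sca1+, so they are called by their label only. Cd200 was at 890.2 to 909 CPM in CD200-high, 179.8 to 279 CPM in type H, 196 to 224 CPM in arterial and 41.6 to 45.6 CPM in the libraries labelled sinusoidal, and Emcn, which encodes endomucin, at 229.8 to 409 CPM in CD200-high, 508 to 527 CPM in type H, 68.6 to 128 CPM in arterial and 2.29 to 7.05 CPM in the libraries labelled sinusoidal. CD200-high libraries thus held Emcn RNA although their gate is EMCN-. The CD31 transcript, Pecam1, was at 242 to 507 CPM in CD200-high, 467 to 534 CPM in type H, 136 to 176 CPM in arterial and 64.9 to 86.6 CPM in the libraries labelled sinusoidal, and Ptprc, which encodes the CD45 that all gates excluded, at 25.8 to 63.2 CPM in CD200-high, 11.7 to 24.6 CPM in type H, 144 to 198 CPM in arterial and 75.96 to 116 CPM in the libraries labelled sinusoidal. The summed level of 12 pan-endothelial markers, all of which had reads in every library, was 2861 to 5210.4 CPM in CD200-high, 7097 to 7614 CPM in type H, 1484 to 1917 CPM in arterial and 231 to 252 CPM in the libraries labelled sinusoidal. The 7 sinusoidal markers summed to 508 to 595 CPM in CD200-high, 7398 to 9222 CPM in type H, 436 to 814 CPM in arterial and 102 to 131 CPM in the libraries labelled sinusoidal, so they were highest in type H and lowest in the libraries that carry the sinusoidal label. The 8 arterial markers summed to 541 to 647 CPM in CD200-high, 129 to 197 CPM in type H, 232 to 244 CPM in arterial and 8.34 to 22.03 CPM in the libraries labelled sinusoidal. In such bulk libraries, fewer cells of a type and less RNA per cell cannot be told apart.

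Of the 36 members, 22 had a RefSeq promoter window (GRCm38.p6), and 4 windows are shown, 1 for a gene that was highest in each of the 4 populations. Itga10 (chr3:96645334-96645583, plus strand) was called higher in CD200-high, Nid1 (chr13:13437352-13437601, plus strand) in type H and Itgam (chr7:128062390-128062639, plus strand) in arterial libraries against each other population, though 1 of the 3 differences of each turned round when libraries were scaled to equal endothelial markers, and Itga2b (chr11:102469884-102470133, minus strand) had its highest mean in the libraries labelled sinusoidal. Each run is the 250 bases before the transcription start, 5′ to 3′ on the gene's strand. Capitals mark AGGAAG (an ETS family motif), GATAA (GATA factors) or GGGCGG (GC box) read on either strand, motifs that do not overlap each other in these windows.
Itga10: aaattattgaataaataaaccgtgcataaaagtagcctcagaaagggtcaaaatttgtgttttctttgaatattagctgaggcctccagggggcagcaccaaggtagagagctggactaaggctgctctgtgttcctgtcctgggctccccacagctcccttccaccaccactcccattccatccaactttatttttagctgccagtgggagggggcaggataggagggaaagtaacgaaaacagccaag
Nid1: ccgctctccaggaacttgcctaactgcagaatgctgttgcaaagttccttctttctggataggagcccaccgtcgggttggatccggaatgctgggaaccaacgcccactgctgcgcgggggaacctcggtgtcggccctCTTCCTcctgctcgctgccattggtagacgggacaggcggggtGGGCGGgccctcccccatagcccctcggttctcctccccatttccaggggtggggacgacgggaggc
Itgam: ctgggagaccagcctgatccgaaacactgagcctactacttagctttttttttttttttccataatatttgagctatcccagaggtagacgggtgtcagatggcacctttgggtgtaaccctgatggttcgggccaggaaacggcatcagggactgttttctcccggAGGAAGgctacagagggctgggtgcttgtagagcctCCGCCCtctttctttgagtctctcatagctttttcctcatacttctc
Itga2b: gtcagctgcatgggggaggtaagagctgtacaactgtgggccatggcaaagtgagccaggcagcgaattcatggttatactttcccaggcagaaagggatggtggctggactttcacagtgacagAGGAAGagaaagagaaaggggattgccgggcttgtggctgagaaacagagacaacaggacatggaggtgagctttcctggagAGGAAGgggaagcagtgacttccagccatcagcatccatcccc
The Itga10 window held none of the 3 motifs, those of Nid1 and Itgam held 1 ETS motif and 1 GC box each, and that of Itga2b held 2 ETS motifs. Of all 32851 windows of this length, 29.5% held AGGAAG, 22.6% GATAA and 32.7% GGGCGG, and of the 24 windows of the members (some genes have more than 1) 12, 2 and 10 did. A match describes the letters, not a bound site, and a missing match says only that these letters are not in this window.

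Most members differed among the populations. The moderated F test over the 4 populations called 25 of 36 members (69.4%), where it called 37.4% of all genes tested. Nid1 (adjusted p = 2.69e-07), Itga1 (adjusted p = 5.78e-06) and Itgb5 (adjusted p = 3.71e-05) had the smallest p-values among the members. Without the 3 libraries labelled sinusoidal, a setting chosen after seeing the data, 17 members passed, and Itga1, Itgae, Itgav, Lama4, Lama5, Lamb1, Lamb2, Lamc1 and Nid2 no longer did. The 11 members that did not pass over the 4 populations were Lamc3 (adjusted p = 0.0501, and 0.0376 with the mouse number as a block), Itga2, Itga3, Itga4, Itga6, Itga8, Itga9, Itgb4, Itgb7, Lama2 and Lama3. Of these, Itga4, Itga8, Itga9, Itgb7, Lama2 and Lamc3 passed with a pseudocount of 1 CPM. With voom weights Itga4, Itga9, Lama2 and Lamc3 passed.

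**Figure D1:**
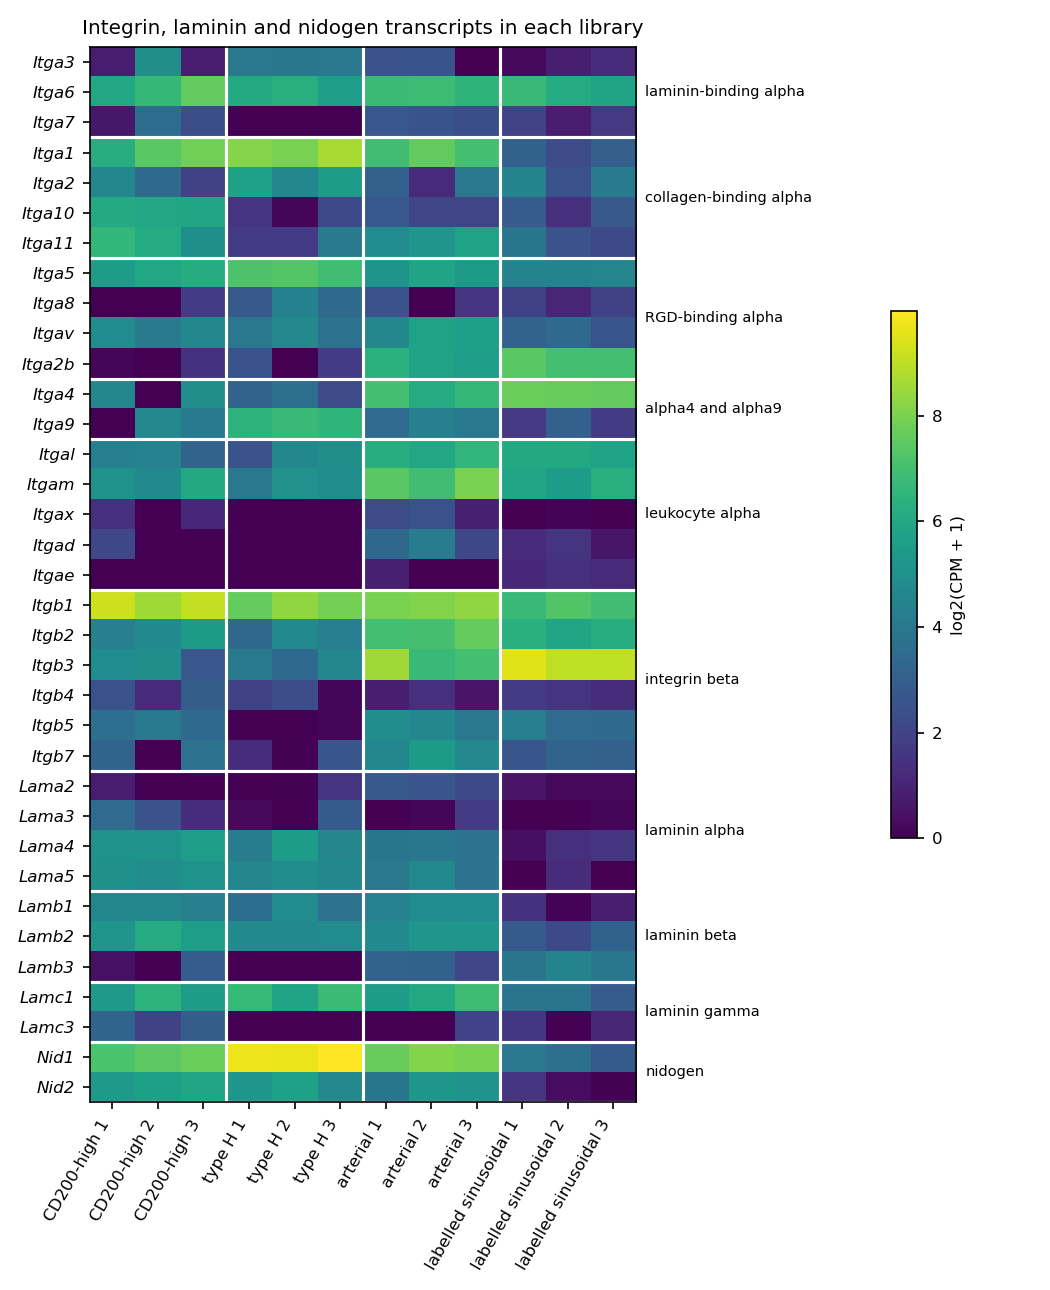
Levels of 35 members (rows, grouped by role) in the 12 libraries (columns, by population and replicate), as log2(CPM + 1) on the colour scale. Nid1 is brightest in type H, Itgb3 and Itga2b in the libraries labelled sinusoidal, and the rows from Lama4 to Lamb2 are dark in those libraries.

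Itga7, Itga10, Itga11, Itgb1, Itgb5 and Lamc3 were higher and Itga5 and Nid1 lower in CD200-high than in type H libraries. CD200-high against type H called 8 members (6 higher, 2 lower), 22.2% of them against 13.0% of all genes (6.66% higher, 6.35% lower). The median difference was 0.59 over the members and -0.05 over all genes tested. CD200-high against arterial called 8 members (2 higher, 6 lower) against 12.9% of all genes (4.75% higher, 8.15% lower), with medians of -0.59 and -0.22. All 6 lower members were integrins of leukocytes or platelets. The count of 8 fell to 4 without arterial replicate 1, to 4 without arterial replicate 2, to 5 without arterial replicate 3 and to 5 without the libraries labelled sinusoidal. Scaled by total reads the split was 1 higher and 7 lower (all genes 568 and 1737), and with quantile normalisation 3 and 5 (all genes 1086 and 1321). Type H against arterial called 14 members (2 higher, 12 lower) against 20.7% of all genes (7.96% higher, 12.7% lower), with medians of -1.62 over the members and -0.20 over all genes.

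Against the libraries labelled sinusoidal, Lama4, Lama5, Lamb1, Lamb2, Lamc1, both nidogens and Itgb1 were higher in each of the other populations, and Itga2b, Itgb3, Itgb2 and Itgal were lower in CD200-high and in type H. CD200-high called 21 members (14 higher, 7 lower) where 28.7% of all genes were called (14.1% higher, 14.6% lower), with a median difference of 1.14 over the members and -0.22 over all genes. Type H called 20 members (10 higher, 10 lower) where 28.6% of all genes were called (13.9% higher, 14.6% lower), with medians of -0.38 and -0.20. Arterial libraries called 14 members, all higher, where 10.2% of all genes were called (8.09% higher, 2.14% lower), with medians of 1.54 and -0.02. Scaled by total reads, the split over all genes was 1997 higher and 3629 lower for CD200-high and 1272 and 569 for arterial, and with quantile normalisation 1312 and 590 for arterial. Scaled to equal endothelial markers, the members split into 10 higher and 1 lower for CD200-high over type H, 0 and 18 for CD200-high over arterial and 0 and 24 for type H over arterial. Against the libraries labelled sinusoidal they then split into 2 higher and 23 lower for CD200-high, 1 and 26 for type H and 6 and 15 for arterial. That scaling moved the median difference of all genes by -5.46 log2 for type H over labelled sinusoidal, to -5.67. The comparisons with 1 shared population use the same libraries and are not independent of each other.

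**Figure D2:**
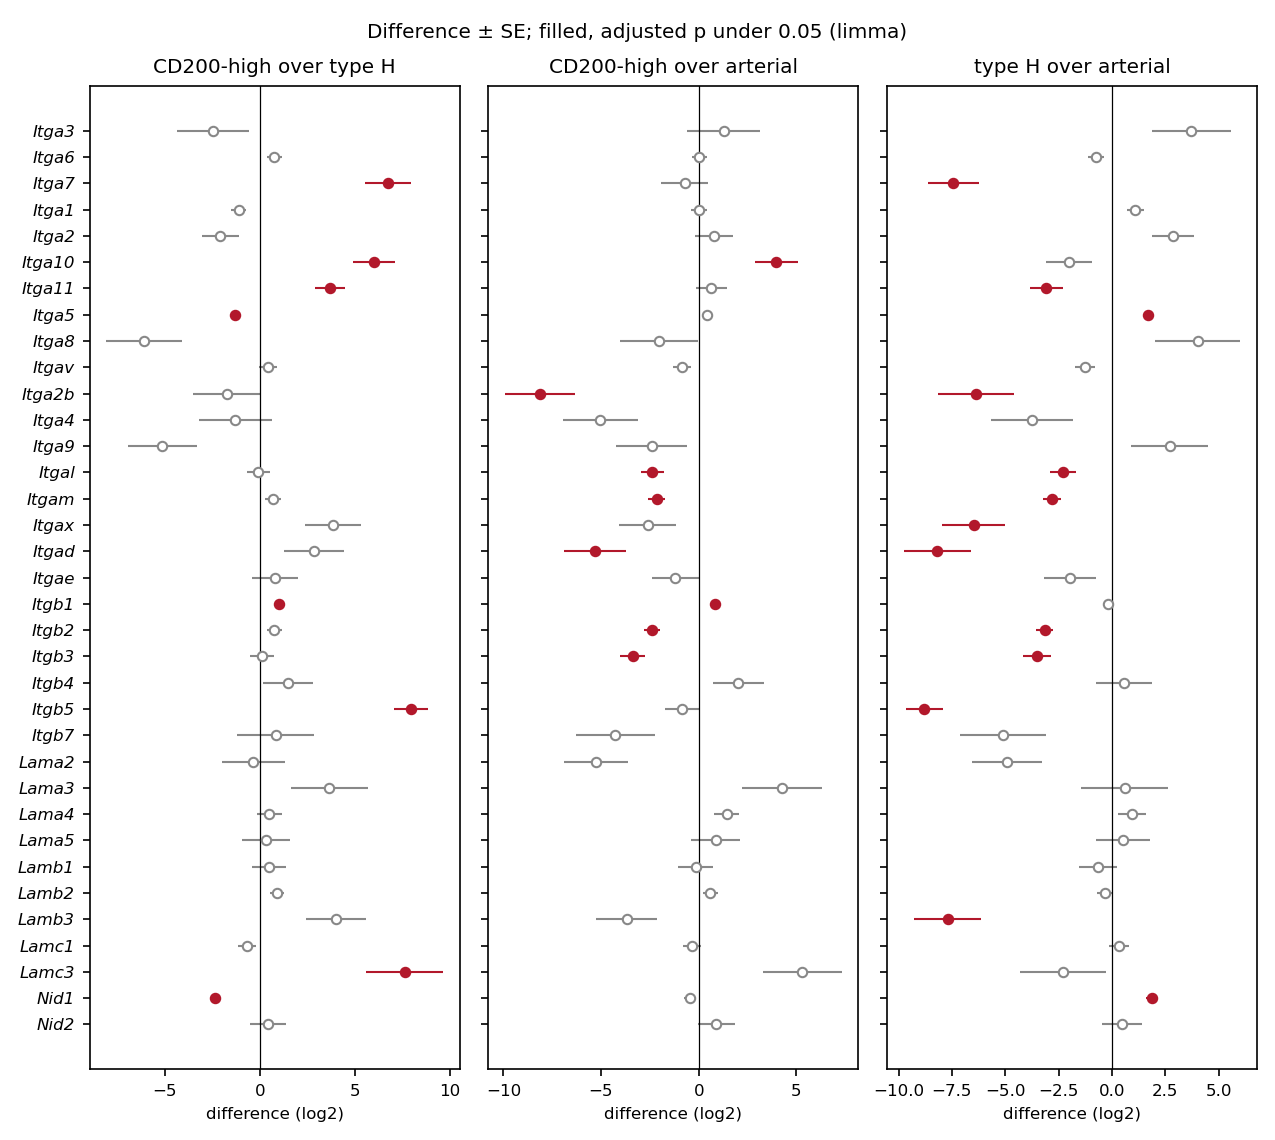
Difference (log2) of 35 members ± SE for CD200-high over type H, CD200-high over arterial and type H over arterial, with filled points for an adjusted p under 0.05 in limma. Itga5 and Nid1 are the filled points on the type H side in the left and right panels. Differences against a population with 0 reads in all 3 libraries depend on the 0.5 read added and are not bounds.

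In the libraries labelled sinusoidal, 10 members were called lower than in each of the other 3 populations: 7 laminin chains and nidogens (Lama4, Lama5, Lamb1, Lamb2, Lamc1, Nid1, Nid2) and 3 integrins (Itga1, Itga5, Itgb1). The share of all genes called lower than in all 3 was not counted. It cannot exceed 8.09%, the share of all genes called higher in arterial against these libraries. The pan-endothelial markers moved the same way, with 11 of 12 called higher in each of CD200-high, type H and arterial against these libraries, and 1 called lower in CD200-high. Their part in these differences was not tested. When each library was shifted to the same median of these markers, 16 of the 30 differences turned round, 8 kept their call and 6 lost it. That shift moved every gene alike against these libraries, by -4.71 log2 for CD200-high, -5.46 for type H and -3.25 for arterial. It therefore shows only which differences were smaller than the shift, and cannot test the part of endothelial cells in a given member. All levels given are relative to the reads of the whole library, not to endothelial cells.

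Lama4 encodes the alpha4 chain, the first laminin alpha chain of new vessels. It was at 33.5, 32.9 and 45.5 CPM in the CD200-high libraries, 17.4, 44.2 and 22.6 CPM in type H and 13.9, 14.2 and 12.9 CPM in arterial. Lama4 was at 0.334, 1.62 and 1.95 CPM in those labelled sinusoidal. All libraries of the first 3 populations lay above all 3 labelled sinusoidal, by 5.13 ± 0.65 log2, adjusted p = 0.000145, 4.62 ± 0.65 log2, adjusted p = 0.000252 and 3.70 ± 0.65 log2, adjusted p = 0.00352 for CD200-high, type H and arterial, and with endothelial markers equalised the type H difference was -0.84 and the other two calls were lost (adjusted p = 0.544 for CD200-high and 0.539 for arterial). CD200-high libraries also all lay above the arterial ones, a difference of 1.43 ± 0.65 log2 that did not pass (adjusted p = 0.182).

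Lama5 encodes the alpha5 chain of mature vessels, arteries in particular. It was at 31.3, 29.03 and 33.5 CPM in the CD200-high libraries, 22.2, 28.8 and 24.3 CPM in type H and 14.8, 26.5 and 12.98 CPM in arterial. Lama5 was at 0, 1.38 and 0 CPM in those labelled sinusoidal. No difference among the first 3 populations passed, and 1 of the 3 libraries labelled sinusoidal had reads. The difference was 8.32 ± 1.26 log2, adjusted p = 0.000494 for CD200-high, and 7.99 ± 1.26 log2, adjusted p = 0.000549 for type H. Arterial libraries were higher by 7.45 ± 1.26 log2, adjusted p = 0.00263. With 2 libraries at 0 reads, these sizes depend on the 0.5 read added, and the type H call was lost with endothelial markers equalised (adjusted p = 0.0718).

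Of the other alpha chains, Lama2 (the main chain of muscle and peripheral nerve) and Lama3 (an epithelial chain) were low. Lama2 was at 0.739, 0 and 0 CPM in the CD200-high libraries, 0, 0.0555 and 1.87 CPM in type H and 5.89, 5.16 and 3.62 CPM in arterial. Lama2 was at 0.446, 0.162 and 0.195 CPM in those labelled sinusoidal. Arterial libraries lay above all others, but no difference passed (F test adjusted p = 0.0667, and 0.016 without type H replicate 3 or 0.0351 without CD200-high replicate 1). With a pseudocount of 1 CPM the F test of Lama2 passed (adjusted p = 0.00407). Arterial was then also called higher than each other population in limma (adjusted p = 0.00556 to 0.00778). With voom weights the F test passed too (adjusted p = 0.0265). Lama3 was at 10.2, 4.93 and 1.48 CPM in the CD200-high libraries, 0.205, 0 and 6.01 CPM in type H and 0, 0.124 and 2.34 CPM in arterial. Lama3 was at 0, 0 and 0.0975 CPM in those labelled sinusoidal (F test adjusted p = 0.0955, and 0.0418 without type H replicate 3). CD200-high exceeded the libraries labelled sinusoidal by 6.71 ± 2.04 log2, adjusted p = 0.0291, a call lost without CD200-high replicate 1 or 2 or labelled sinusoidal replicate 1 or 2 (adjusted p = 0.0644 to 0.0909) and with endothelial markers equalised (adjusted p = 0.37). Reticular stroma markers summed to 1116 to 1733 CPM in CD200-high, 823 to 2603 CPM in type H, 4292 to 9751 CPM in arterial and 308 to 679 CPM in the libraries labelled sinusoidal, also highest in arterial libraries. The 3 skeletal muscle markers in the table summed to 0.625 to 9.89 CPM in CD200-high, 0.205 to 11.5 CPM in type H, 4.79 to 41.5 CPM in arterial and 2.395 to 72.9 CPM in the libraries labelled sinusoidal, with Ckm at 0 in all of CD200-high. Their part in the Lama2 level was not tested.

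Lamb1 and Lamb2 encode the beta chains that pair with alpha4 and alpha5. Lamb1 was at 22.6, 24.4 and 19.3 CPM in the CD200-high libraries, 11.3, 27.04 and 12.5 CPM in type H and 20.4, 27.03 and 26.9 CPM in arterial. Lamb1 was at 1.67, 0.08098 and 0.7799 CPM in those labelled sinusoidal. Lamb2 was at 36.3, 69.8 and 46.8 CPM in the CD200-high libraries, 25.7, 26.3 and 27.1 CPM in type H and 25.7, 35.8 and 37.7 CPM in arterial. Lamb2 was at 6.02, 3.77 and 7.604 CPM in those labelled sinusoidal. For both chains every library of the first 3 populations lay above every one labelled sinusoidal, and none of the 3 differences among those populations passed. Differences of Lamb1 against the libraries labelled sinusoidal were 5.42 ± 0.88 log2 for CD200-high, 4.92 ± 0.88 log2 for type H and 5.57 ± 0.88 log2 for arterial (adjusted p = 0.000842, 0.00138 and 0.00177), and with endothelial markers equalised the type H one was -0.54 and the CD200-high call was lost (adjusted p = 0.49). Those of Lamb2 were 3.14 ± 0.37 log2, 2.24 ± 0.37 log2 and 2.55 ± 0.37 log2 in the same order (adjusted p = 8.73e-05, 0.000817 and 0.00106), all 3 of which turned negative with the markers equalised (-1.57, -3.22 and -0.71).

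Lamc1 encodes the gamma1 chain, part of most laminin trimers. It was at 39.8, 85.9 and 45.02 CPM in the CD200-high libraries, 102, 55.6 and 109 CPM in type H and 44.2, 63.8 and 113 CPM in arterial. Lamc1 was at 13.3, 13.4 and 6.29 CPM in those labelled sinusoidal. The first 3 populations overlapped each other and none overlapped the libraries labelled sinusoidal. Differences were 2.37 ± 0.46 log2, adjusted p = 0.00254 for CD200-high, 3.04 ± 0.46 log2, adjusted p = 0.000405 for type H and 2.71 ± 0.46 log2, adjusted p = 0.00262 for arterial, and they became -2.35, -2.43 and -0.54 with endothelial markers equalised.

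Lamb3 encodes a beta chain of the laminin of skin and other epithelia. It was at 0.3697, 0 and 6.49 CPM in the CD200-high libraries, 0, 0 and 0 CPM in type H and 7.92, 7.58 and 3.298 CPM in arterial. Lamb3 was at 13.3, 21.3 and 14.1 CPM in those labelled sinusoidal. It had no reads in type H and its highest levels in the libraries labelled sinusoidal, opposite to Lamb1 and Lamb2. Against the floor of 3 reads per library in type H it was at least 36.5-fold higher in arterial, that is lower in type H (adjusted p = 0.00507), and at least 94.5-fold higher in the libraries labelled sinusoidal (adjusted p = 0.00103). CD200-high differed from the libraries labelled sinusoidal by -5.12 ± 1.57 log2, adjusted p = 0.0302, and this call was lost without CD200-high replicate 1 or 2 or labelled sinusoidal replicate 1, 2 or 3 (adjusted p = 0.0656 to 0.0884). The difference was -3.26 log2 without CD200-high replicate 2.

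Lamc3, a gamma chain of restricted expression, was at 8.32, 2.92 and 6.79 CPM in the CD200-high libraries, 0, 0 and 0 CPM in type H and 0, 0 and 2.98 CPM in arterial. Lamc3 was at 2.06, 0 and 1.12 CPM in those labelled sinusoidal. CD200-high lay at least 35.03-fold above the floor of type H (adjusted p = 0.0282), a call lost without CD200-high replicate 1 or 3 or type H replicate 1, 2 or 3 (adjusted p = 0.0637 to 0.0763).

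**Figure D3:**
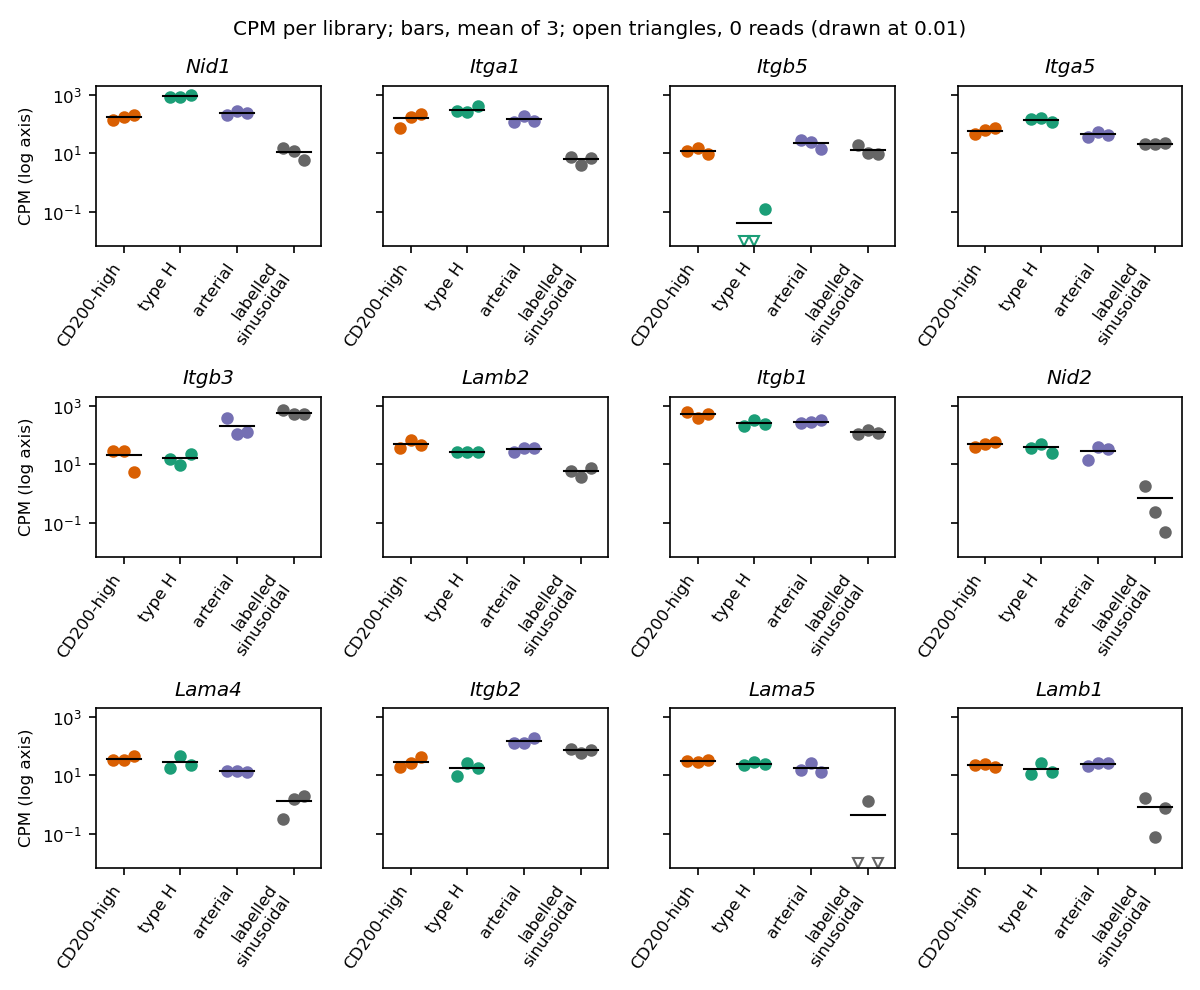
CPM per library (log axis) of the 12 members with the smallest F test p, in the 4 populations; bars are means of 3 libraries and open triangles are libraries with 0 reads, drawn at 0.01. The libraries labelled sinusoidal lie lowest for Nid1, Nid2, Lama4, Lama5, Lamb1 and Lamb2 and highest for Itgb3, and type H lies lowest for Itgb5.

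Nid1 encodes nidogen-1, the commoner of the linkers between laminin and collagen IV. It was at 142, 178 and 209.9 CPM in the CD200-high libraries, 849, 816 and 1011 CPM in type H and 199.8, 282 and 248 CPM in arterial. Nid1 was at 14.7, 11.9 and 6.09 CPM in those labelled sinusoidal. Type H libraries formed a group above all others, CD200-high and arterial libraries overlapped, and those labelled sinusoidal lay below all. CD200-high fell below type H by the difference -2.35 ± 0.29 log2, adjusted p = 0.000275. Type H exceeded arterial by 1.88 ± 0.29 log2, adjusted p = 0.000935, which became -0.33 with endothelial markers equalised, and the libraries labelled sinusoidal by 6.44 ± 0.29 log2, adjusted p = 5.77e-08. CD200-high and arterial exceeded the libraries labelled sinusoidal by 4.09 ± 0.29 log2, adjusted p = 2.24e-06 (-0.62 with markers equalised) and by 4.56 ± 0.29 log2, adjusted p = 2.71e-06.

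Nid2, the other nidogen gene, was at 40.02, 49.7 and 56.98 CPM in the CD200-high libraries, 37.5, 51.3 and 24.7 CPM in type H and 13.8, 38.5 and 33.7 CPM in arterial. Nid2 was at 1.84, 0.243 and 0.0487 CPM in those labelled sinusoidal. It did not share the peak of Nid1 in type H: type H overlapped both CD200-high and arterial, CD200-high lay just above arterial, and CD200-high differed from type H by 0.42 ± 0.95 log2 (adjusted p = 0.82). Compared with the libraries labelled sinusoidal the differences were 7.20 ± 0.95 log2 for CD200-high, 6.78 ± 0.95 log2 for type H and 6.31 ± 0.95 log2 for arterial (adjusted p = 0.000183, 0.000239 and 0.00125), and the type H call was lost with endothelial markers equalised (adjusted p = 0.228). Of its exon bases, 8.45% are shared with Rtraf on the other strand, and the strand counted is not stated.

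Chain shares were computed from CPM per kb of exon, the scale on which genes of unlike length can be compared. Lama4 held 48.4 ± 6.27% of the summed laminin alpha level in CD200-high libraries, 47.1 ± 10.4% in those of type H, 37.3 ± 5.72% in the arterial ones and 63.2 ± 21.9% in those labelled sinusoidal (mean ± SD, n = 3), and Lama5 held 43.2 ± 1.13%, 47.8 ± 8.38%, 50.002 ± 9.42% and 15.2 ± 26.3%. In the first 3 populations these 2 chains made up most of the family. In the libraries labelled sinusoidal the whole family summed to 0.168 ± 0.106 CPM per kb, against 3.096 ± 0.646 in arterial, and those shares rest on few reads. Lamb2 held 75.5 ± 5.89% of the laminin beta level in CD200-high libraries, 72.7 ± 9.81% in those of type H and 60.9 ± 4.704% in the arterial ones, whereas in the libraries labelled sinusoidal Lamb3 held 69.6 ± 12.3% and Lamb2 27.8 ± 10.5%. An exact permutation test of 3 against 3 libraries cannot go below p = 0.1, so shares were not tested.

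**Figure D4:**
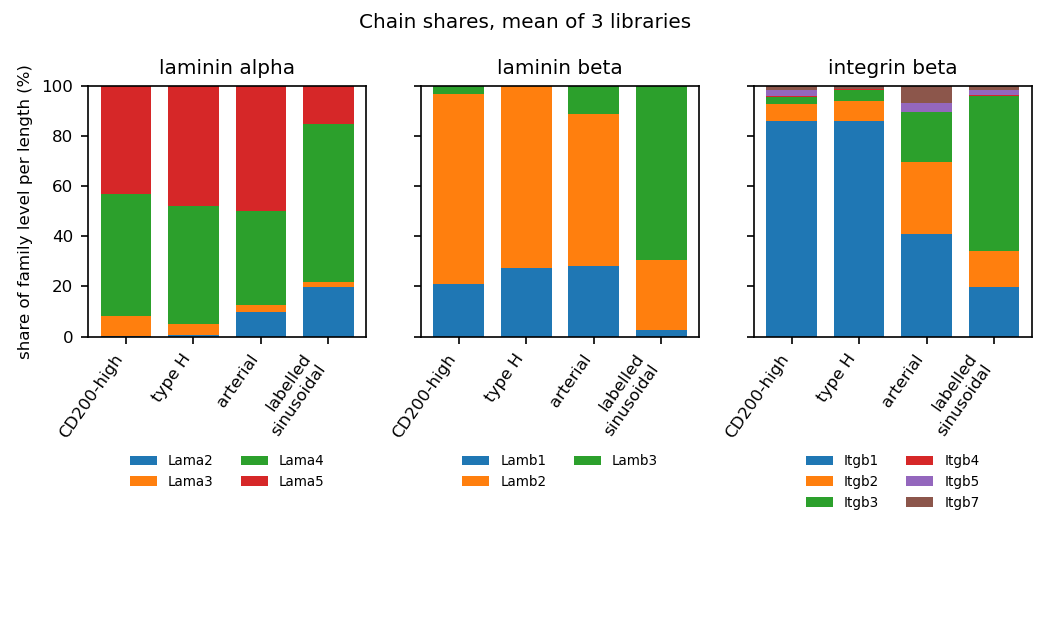
Mean share (%) of each gene in the summed level per kb of exon of its family, for laminin alpha and beta chains and integrin beta subunits, as stacked bars of 3 libraries per population. Lamb3 and Itgb3 take most of their families in the libraries labelled sinusoidal, at 69.6% and 61.9%.

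Itgb1, the beta1 subunit shared by the laminin, collagen and fibronectin receptors, was highest in CD200-high. It was at 601, 381 and 542 CPM in the CD200-high libraries, 197, 318 and 235 CPM in type H and 253, 274 and 324 CPM in arterial. Itgb1 was at 106, 152 and 121 CPM in those labelled sinusoidal. All CD200-high libraries lay above all others, and type H and arterial overlapped. CD200-high exceeded type H by 1.03 ± 0.22 log2, adjusted p = 0.0102, a call lost without the trend (adjusted p = 0.0564) or with those 2 populations alone (adjusted p = 0.0502). It exceeded arterial by 0.82 ± 0.22 log2, adjusted p = 0.0324, which became -0.64 with endothelial markers equalised and was lost without CD200-high replicate 1 or 3 or arterial replicate 1, 2 or 3 (adjusted p = 0.0506 to 0.108). Against the libraries labelled sinusoidal the differences were 1.99 ± 0.22 log2 for CD200-high, 0.97 ± 0.22 log2 for type H and 1.17 ± 0.22 log2 for arterial (adjusted p = 5.95e-05, 0.00671 and 0.00567), all of which turned round with the markers equalised (-2.72, -4.50 and -2.08).

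Per kb, Itgb1 held 86.1 ± 2.72% of the integrin beta level in CD200-high libraries and 86.2 ± 2.94% in those of type H, but 40.9 ± 6.21% in the arterial ones and 19.7 ± 5.26% in those labelled sinusoidal. The largest other shares were those of Itgb2 in arterial (28.8 ± 6.91%) and Itgb3 in the libraries labelled sinusoidal (61.9 ± 4.76%), and these are subunits of leukocyte and platelet integrins.

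Of the alpha subunits that bind laminin, Itga6 was the most abundant and passed in no comparison. It was at 61.5, 100.4 and 191 CPM in the CD200-high libraries, 68.2, 75.8 and 45.7 CPM in type H and 111, 114 and 89.7 CPM in arterial. Itga6 was at 104, 70.3 and 56.01 CPM in those labelled sinusoidal. Arterial libraries lay above those of type H, and all other pairs of populations overlapped (F test adjusted p = 0.258). With endothelial markers equalised, Itga6 passed the F test (adjusted p = 1.19e-07), as 15528 of all genes did. Every comparison of Itga6 was then called, from -5.73 log2 for type H over labelled sinusoidal to 1.52 for CD200-high over type H. Itga3 was at 0.739, 29.2 and 0.738 CPM in the CD200-high libraries, 14.5, 14.2 and 14.9 CPM in type H and 4.94, 4.97 and 0 CPM in arterial. Itga3 was at 0.167, 0.769 and 1.41 CPM in those labelled sinusoidal. Type H libraries lay close together, and the 29.2 CPM in CD200-high replicate 2 stood beside levels under 1 CPM in the other two (F test adjusted p = 0.217). Itga7, best known from muscle, was at 0.555, 10.4 and 4.28 CPM in the CD200-high libraries, 0, 0 and 0 CPM in type H and 5.596, 4.97 and 4.26 CPM in arterial. Itga7 was at 3.17, 0.729 and 2.14 CPM in those labelled sinusoidal. It had no reads in type H, and the other populations exceeded the floor there, CD200-high at least 29.6-fold (adjusted p = 0.00304), arterial at least 28.8-fold (adjusted p = 0.00115) and those labelled sinusoidal at least 11.8-fold (adjusted p = 0.00286). The last call was lost with a pseudocount of 1 CPM (adjusted p = 0.104). Itgb4, the partner of alpha6 in laminin-bound epithelia, ranged from 0.129 to 6.64 CPM over all 12 libraries and did not pass (F test adjusted p = 0.561).

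The 4 collagen-binding alpha subunits split by population: Itga10 and Itga11 were high in CD200-high, Itga1 was low in the libraries labelled sinusoidal, and Itga2 did not pass. Itga10, known from cartilage, was at 68.1, 61.7 and 57.3 CPM in the CD200-high libraries, 1.798, 0.111 and 3.62 CPM in type H and 5.66, 3.29 and 3.19 CPM in arterial. Itga10 was at 6.29, 1.58 and 5.898 CPM in those labelled sinusoidal. The CD200-high libraries lay within 57.3 to 68.1 CPM and every other library below 7 CPM. CD200-high exceeded type H by 5.998 ± 1.09 log2, adjusted p = 0.00348, and the libraries labelled sinusoidal by 3.99 ± 1.09 log2, adjusted p = 0.0176, which became -0.72 with endothelial markers equalised and was lost without labelled sinusoidal replicate 2 (adjusted p = 0.0712). It exceeded arterial by 3.98 ± 1.09 log2, adjusted p = 0.0333, a call lost without CD200-high replicate 1, 2 or 3 or arterial replicate 1, 2 or 3 (adjusted p = 0.0646 to 0.0936) and also without the libraries labelled sinusoidal (adjusted p = 0.0542) or with endothelial markers equalised (adjusted p = 0.0773). Of the exon bases of Itga10, 33.5% are shared with the gene model Gm42957 on the same strand, and its counts are uncertain.

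Itga11, a collagen receptor of mesenchymal cells, was at 95.4, 70.4 and 30.1 CPM in the CD200-high libraries, 2.36, 2.33 and 15.97 CPM in type H and 26.9, 35.98 and 55.1 CPM in arterial. Itga11 was at 13.7, 4.899 and 3.75 CPM in those labelled sinusoidal. CD200-high lay above type H and the libraries labelled sinusoidal without overlap and overlapped arterial. CD200-high exceeded type H by 3.71 ± 0.79 log2, adjusted p = 0.00877 and the libraries labelled sinusoidal by 3.21 ± 0.79 log2, adjusted p = 0.0103, and the second of these became -1.50 with endothelial markers equalised. Type H differed from arterial by -3.07 ± 0.79 log2, adjusted p = 0.0169, a call lost without type H replicate 1 or 2 or arterial replicate 3 (adjusted p = 0.0553 to 0.0657). Osteoblast markers, all 6 of which had reads in every CD200-high library, summed to 65981 to 96249 CPM in CD200-high, 152 to 874 CPM in type H, 7488 to 8933 CPM in arterial and 3871 to 9099.9 CPM in the libraries labelled sinusoidal. They were highest in CD200-high, as were the means of Itga10 and Itga11. For Itga11, CD200-high over arterial was 0.64 ± 0.79 log2 and did not pass (limma adjusted p = 0.65). The part of the osteoblast markers in these levels was not tested.

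Itga1, the alpha subunit of the main collagen IV receptor of small vessels, was at 73.4, 171 and 229 CPM in the CD200-high libraries, 285, 249 and 407 CPM in type H and 120.1, 192 and 126 CPM in arterial. Itga1 was at 7.69, 4.01 and 7.21 CPM in those labelled sinusoidal. Type H libraries lay highest, CD200-high and arterial overlapped, and all 9 lay well above the libraries labelled sinusoidal; no difference among the first 3 populations passed. Differences against those were 4.55 ± 0.41 log2, adjusted p = 1.28e-05 for CD200-high, 5.66 ± 0.41 log2, adjusted p = 1.74e-06 for type H and 4.55 ± 0.41 log2, adjusted p = 3.7e-05 for arterial, and with endothelial markers equalised the CD200-high one became -0.16 and the type H call was lost (adjusted p = 0.626). With voom weights limma called type H above CD200-high (adjusted p = 0.0309) and above arterial (adjusted p = 0.0197). With endothelial markers equalised, type H over arterial was instead -1.11 log2 (adjusted p = 0.0191) and CD200-high over arterial -1.46 log2 (adjusted p = 0.00733). Itga2, a collagen receptor of platelets and epithelia, was at 23.6, 9.93 and 2.95 CPM in the CD200-high libraries, 51.98, 23.3 and 44.1 CPM in type H and 7.26, 1.31 and 14.5 CPM in arterial. Itga2 was at 21.1, 4.78 and 15.7 CPM in those labelled sinusoidal. Type H lay above arterial without overlap, by 2.85 ± 0.97 log2, which did not pass (adjusted p = 0.0585) but did with the mouse number as a block (adjusted p = 0.0405).

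Itga5, the alpha subunit of the main fibronectin receptor, had its peak in type H like Nid1. It was at 44.5, 61.1 and 71.1 CPM in the CD200-high libraries, 146, 158 and 120.0 CPM in type H and 34.8, 55.7 and 42.8 CPM in arterial. Itga5 was at 21.2, 21.3 and 22.3 CPM in those labelled sinusoidal. The 3 type H libraries lay above all others, and the 3 labelled sinusoidal, within 21.2 to 22.3 CPM, below all others. CD200-high differed from type H by -1.28 ± 0.25 log2, adjusted p = 0.0057, and type H from arterial by 1.69 ± 0.25 log2, adjusted p = 0.000754, the second of which became -0.53 with endothelial markers equalised, while the first call was lost (adjusted p = 0.18). Compared with the libraries labelled sinusoidal the differences were 1.42 ± 0.25 log2 for CD200-high, 2.70 ± 0.25 log2 for type H and 1.01 ± 0.25 log2 for arterial (adjusted p = 0.00145, 1.11e-05 and 0.025), and all turned round with the markers equalised (-3.29, -2.77 and -2.24). The arterial call was lost without arterial replicate 2 or 3 or labelled sinusoidal replicate 1, 2 or 3 (adjusted p = 0.0581 to 0.102).

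Itgav, which with several beta subunits binds vitronectin and latent TGF-beta, was at 28.2, 15.9 and 24.4 CPM in the CD200-high libraries, 14.6, 24.8 and 12.5 CPM in type H and 23.5, 54.3 and 49.3 CPM in arterial. Itgav was at 7.798, 9.64 and 5.31 CPM in those labelled sinusoidal. The libraries labelled sinusoidal lay below all others. CD200-high exceeded them by 1.59 ± 0.46 log2, adjusted p = 0.0235 , lost without CD200-high replicate 1 or 3 or labelled sinusoidal replicate 1 or 3 (adjusted p = 0.0533 to 0.0831), and arterial by 2.43 ± 0.46 log2, adjusted p = 0.00541, and these became -3.12 and -0.82 with endothelial markers equalised. Itgb5, a partner of alphav, was at 11.6, 15.2 and 9.74 CPM in the CD200-high libraries, 0, 0 and 0.129 CPM in type H and 29.05, 24.2 and 14.4 CPM in arterial. Itgb5 was at 18.7, 10.2 and 9.70 CPM in those labelled sinusoidal. Type H stood alone, with 0 reads in replicates 1 and 2 and 0.129 CPM in replicate 3, while every other library was near 10 CPM or above. CD200-high exceeded type H (adjusted p = 0.000117), and type H lay below arterial (adjusted p = 6.48e-05) and below the libraries labelled sinusoidal (adjusted p = 4.05e-05). With 1 type H library at a few reads and the others at 0, no fold is given.

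Itga8, a receptor for nephronectin, and Itga9, which binds tenascin-C and VCAM1, had their highest levels in type H and did not pass. Itga8 was at 0, 0 and 2.36 CPM in the CD200-high libraries, 5.96, 20.1 and 9.83 CPM in type H and 4.703, 0 and 1.81 CPM in arterial. Itga8 was at 2.84, 1.09 and 2.88 CPM in those labelled sinusoidal (F test adjusted p = 0.114, and 0.0298 without CD200-high replicate 3). Itga9 was at 0, 25.2 and 16.7 CPM in the CD200-high libraries, 86.9, 105 and 90.4 CPM in type H and 10.2, 19.3 and 14.9 CPM in arterial. Itga9 was at 2.17, 7.33 and 2.34 CPM in those labelled sinusoidal. In type H all 3 libraries of Itga9 exceeded every other library of the series (F test adjusted p = 0.111). CD200-high replicate 1 had 0 reads beside 25.2 and 16.7 CPM in the other two, and the F test passed without that replicate (adjusted p = 0.000297) or without replicate 2 (adjusted p = 0.0445). It also passed with a pseudocount of 1 CPM (adjusted p = 0.0105) and with voom weights (adjusted p = 0.0323). With voom weights limma called type H above CD200-high, arterial and labelled sinusoidal libraries (adjusted p = 0.0267, 0.0112 and 0.00499).

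Itga2b and Itgb3, which together encode the platelet fibrinogen receptor, had their highest means in the libraries labelled sinusoidal. Itga2b was at 0.0924, 0 and 1.77 CPM in the CD200-high libraries, 4.78, 0 and 2.46 CPM in type H and 81.97, 52.2 and 45.96 CPM in arterial. Itga2b was at 169, 126 and 123 CPM in those labelled sinusoidal. Every arterial and labelled sinusoidal library lay above every CD200-high and type H library. Arterial over labelled sinusoidal was -1.24 ± 1.78 log2 and did not pass (limma adjusted p = 0.752), but did with voom weights (adjusted p = 0.0435). The differences were -8.13 ± 1.78 log2, adjusted p = 0.0122 for CD200-high against arterial and -9.38 ± 1.78 log2, adjusted p = 0.00224 against the libraries labelled sinusoidal. Type H differed from arterial by -6.39 ± 1.78 log2, adjusted p = 0.0249 and from the libraries labelled sinusoidal by -7.64 ± 1.78 log2, adjusted p = 0.00704. The call of type H against arterial was lost without arterial replicate 1, 2 or 3 (adjusted p = 0.0615 to 0.079) and without the libraries labelled sinusoidal (adjusted p = 0.0629), and the difference was -4.07 log2 without type H replicate 2, which had 0 reads.

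Itgb3 was at 27.9, 29.7 and 5.46 CPM in the CD200-high libraries, 15.6, 9.72 and 23.3 CPM in type H and 379.7, 108 and 128 CPM in arterial. Itgb3 was at 729, 523 and 519.9 CPM in those labelled sinusoidal. As for Itga2b, every labelled sinusoidal library lay above every arterial one, and these above all CD200-high and type H libraries. Arterial over labelled sinusoidal was -1.74 log2 and did not pass (limma adjusted p = 0.12), but did with voom weights (adjusted p = 0.00615). Arterial replicate 1, at 379.7 CPM, stood well above the other arterial libraries. CD200-high differed from arterial by -3.39 ± 0.64 log2, adjusted p = 0.00551 (0.0504 with voom weights) and from the libraries labelled sinusoidal by -5.13 ± 0.64 log2, adjusted p = 0.000125. Type H differed from them by -3.51 ± 0.64 log2, adjusted p = 0.00254 and by -5.25 ± 0.64 log2, adjusted p = 8.63e-05. Markers of megakaryocytes and platelets summed to 15.7 to 109 CPM in CD200-high, 36.8 to 71.3 CPM in type H, 475 to 1635 CPM in arterial and 2926 to 4115 CPM in the libraries labelled sinusoidal, with reads in every library for 8 of 8 markers in the last 2 populations and 3 of 8 in the first 2, and arterial replicate 1 was again the highest arterial library. None of the defining markers was at 0 in a whole population, and the part of such cells in Itga2b and Itgb3 was not tested.

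Itgam, the alpha subunit of a complement receptor of neutrophils and macrophages, was the 1 member called higher in arterial than in each other population. The share of all genes called in this way was not counted. Itgam was at 33.8, 25.8 and 64.5 CPM in the CD200-high libraries, 15.1, 31.7 and 29.1 CPM in type H and 169, 119 and 247 CPM in arterial. Itgam was at 58.6, 43.2 and 77.2 CPM in those labelled sinusoidal. All 3 arterial libraries lay above all others. The differences from arterial were -2.15 ± 0.42 log2, adjusted p = 0.00644 for CD200-high and -2.83 ± 0.42 log2, adjusted p = 0.000703 for type H. Arterial exceeded the libraries labelled sinusoidal by 1.56 ± 0.42 log2, adjusted p = 0.0359, which became -1.69 with endothelial markers equalised and was lost without arterial replicate 1 or 3 or labelled sinusoidal replicate 1 or 2 (adjusted p = 0.0804 to 0.155). Type H differed from the libraries labelled sinusoidal by -1.27 ± 0.42 log2, adjusted p = 0.0403, lost without type H replicate 1 or 3, arterial replicate 1 or labelled sinusoidal replicate 1 or 3 (adjusted p = 0.0535 to 0.144). Of the exon bases of Itgam, 68.7% are shared with the gene model Gm49368 on the same strand, and its counts are uncertain.

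Itgb2, the beta subunit of the leukocyte integrins that bind ICAMs and complement, was at 19.5, 26.05 and 42.1 CPM in the CD200-high libraries, 9.19, 26.3 and 18.4 CPM in type H and 123, 132 and 195 CPM in arterial. Itgb2 was at 79.98, 58.3 and 73.7 CPM in those labelled sinusoidal. Arterial libraries lay above all others, those labelled sinusoidal came next, and CD200-high and type H overlapped. The differences from arterial were -2.40 ± 0.40 log2, adjusted p = 0.00274 for CD200-high and -3.16 ± 0.40 log2, adjusted p = 0.00026 for type H. From the libraries labelled sinusoidal they were -1.33 ± 0.40 log2, adjusted p = 0.0272 for CD200-high, lost without CD200-high replicate 1 or 2 or labelled sinusoidal replicate 1 or 3 (adjusted p = 0.0629 to 0.0884), and -2.09 ± 0.40 log2, adjusted p = 0.0021 for type H.

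Itgal, the alpha subunit of the lymphocyte ICAM receptor, was at 18.9, 20.3 and 7.97 CPM in the CD200-high libraries, 4.93, 24.5 and 29.4 CPM in type H and 72.98, 62.1 and 94.4 CPM in arterial. Itgal was at 65.1, 65.3 and 54.98 CPM in those labelled sinusoidal. CD200-high and type H overlapped each other and lay below the other populations. CD200-high differed from arterial by -2.37 ± 0.60 log2, adjusted p = 0.0233, lost without CD200-high replicate 3 or arterial replicate 1, 2 or 3 (adjusted p = 0.0504 to 0.0824) and without the libraries labelled sinusoidal (adjusted p = 0.0542). Type H differed from arterial by -2.30 ± 0.60 log2, adjusted p = 0.0179, lost without arterial replicate 1 or 3 (adjusted p = 0.0505 to 0.0648), and by -1.49 log2 without type H replicate 1. From the libraries labelled sinusoidal, CD200-high differed by -2.08 ± 0.60 log2, adjusted p = 0.0225, lost without CD200-high replicate 3 or labelled sinusoidal replicate 1, 2 or 3 (adjusted p = 0.0506 to 0.0744), and type H by -2.01 ± 0.60 log2, adjusted p = 0.0253, lost without type H replicate 1 or labelled sinusoidal replicate 1, 2 or 3 (adjusted p = 0.054 to 0.0705) and -1.20 log2 without type H replicate 1.

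The other leukocyte alpha subunits were at low levels. Itgad, of macrophages, was at 3.42, 0 and 0 CPM in the CD200-high libraries, 0, 0 and 0 CPM in type H and 9.23, 17.1 and 3.51 CPM in arterial. Itgad was at 1.28, 1.82 and 0.536 CPM in those labelled sinusoidal. Arterial was at least 57.96-fold higher than the floor in type H (adjusted p = 0.00369), and the libraries labelled sinusoidal at least 7.07-fold with adjusted p = 0.0264, lost without type H replicate 1, 2 or 3 or labelled sinusoidal replicate 1 or 2 (adjusted p = 0.0558 to 0.0843). CD200-high against arterial had adjusted p = 0.0475, and 0.0562 with the mouse number as a block. That call was lost without CD200-high replicate 2 or 3, type H replicate 1, 2 or 3, arterial replicate 1, 2 or 3 or labelled sinusoidal replicate 1, 2 or 3 (adjusted p = 0.0545 to 0.139) and without the libraries labelled sinusoidal (adjusted p = 0.0873). Itgax, of dendritic cells and macrophages, was at 1.57, 0 and 1.18 CPM in the CD200-high libraries, 0, 0 and 0 CPM in type H and 3.81, 4.66 and 0.851 CPM in arterial. Itgax was at 0, 0.08098 and 0 CPM in those labelled sinusoidal. Arterial was at least 18.1-fold higher than the floor in type H (adjusted p = 0.00936, lost with quantile normalisation at 0.0716, as was the F test at 0.0641). It exceeded the libraries labelled sinusoidal with adjusted p = 0.0247, lost without arterial replicate 1 or 2 or labelled sinusoidal replicate 1 or 3 (adjusted p = 0.0652 to 0.0833) and with endothelial markers equalised (adjusted p = 0.124).

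Itgae, which with beta7 binds E-cadherin, reached at most 1.58 CPM. It had reads in every library labelled sinusoidal and in 1 arterial library, and in none of CD200-high or type H. The libraries labelled sinusoidal were at least 4.49-fold above the floor in CD200-high (adjusted p = 0.0118) and at least 8.102-fold above that in type H (adjusted p = 0.00452). Itgb7 was at 8.23, 0 and 12.5 CPM in the CD200-high libraries, 1.39, 0.0555 and 5.301 CPM in type H and 24.3, 42.6 and 25.3 CPM in arterial. Itgb7 was at 5.29, 7.98 and 7.26 CPM in those labelled sinusoidal. Arterial libraries lay above all others, but no difference passed (F test adjusted p = 0.181), and the F test passed without CD200-high replicate 2, which had 0 reads (adjusted p = 0.035). Itga4, the alpha subunit of the VCAM1 receptor of blood cells, was at 24.03, 0 and 29.4 CPM in the CD200-high libraries, 7.705, 11.8 and 3.88 CPM in type H and 126, 69.1 and 99.1 CPM in arterial. Itga4 was at 209, 202 and 191 CPM in those labelled sinusoidal. The libraries labelled sinusoidal lay highest and arterial next, without overlap. CD200-high differed from the libraries labelled sinusoidal by -6.11 ± 1.92 log2, adjusted p = 0.0335, lost without labelled sinusoidal replicate 1, 2 or 3 (adjusted p = 0.0785 to 0.0814). Replicate 2 of CD200-high had 0 reads, and without it the difference was -2.91 log2. The F test (adjusted p = 0.0587) passed without any 1 CD200-high library (adjusted p = 3e-05 without replicate 2, 0.0257 without replicate 3 and 0.0322 without replicate 1).

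Neutrophil markers, all 8 with reads in every library, summed to 6059 to 10562 CPM in CD200-high, 4339 to 7517 CPM in type H, 19554 to 31453 CPM in arterial and 5515 to 9627 CPM in the libraries labelled sinusoidal. Macrophage markers summed to 35.8 to 157 CPM in CD200-high, 34.8 to 114 CPM in type H, 632 to 1308 CPM in arterial and 144 to 184 CPM in the libraries labelled sinusoidal, and 7 of 7 had reads in every arterial library against 5 of 7 in each other population. Both lists were highest in arterial libraries, as were Itgam, Itgb2, Itgad and Itgax. B and plasma cell markers summed to 118 to 231 CPM in CD200-high, 75.5 to 164 CPM in type H, 859 to 1584 CPM in arterial and 3958 to 4648 CPM in the libraries labelled sinusoidal, highest in the libraries labelled sinusoidal like Itga4. The part of these cells in the integrin levels was not tested.

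**Figure D5:**
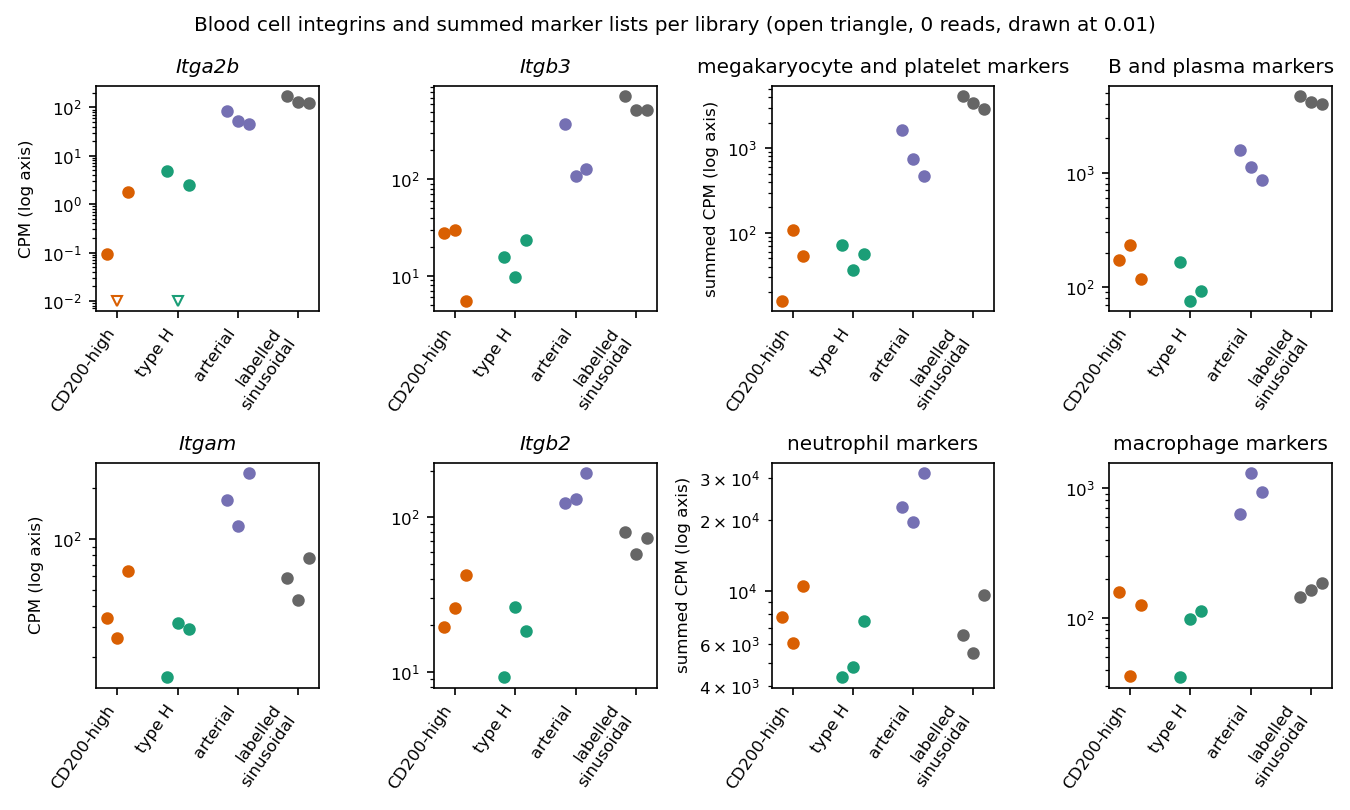
CPM of Itga2b, Itgb3, Itgam and Itgb2 and summed CPM of 4 marker lists per library (log axes), by population; open triangles are libraries with 0 reads, drawn at 0.01. Itga2b, Itgb3 and the megakaryocyte and platelet list are highest in the libraries labelled sinusoidal, and Itgam, Itgb2 and the neutrophil and macrophage lists in arterial libraries.

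Other genes of the pathway were read from 4 lists, which share the background percentages of called genes given above for each comparison. For the F test that percentage was 37.4% of all genes. Egfl7 is also a pan-endothelial marker, Vcam1 a sinusoidal one and Ibsp an osteoblast one. Of 18 other basement membrane genes, 14 passed the F test. Against the libraries labelled sinusoidal, 11 were higher in CD200-high with 0 lower, 9 higher and 2 lower in type H, and 10 higher and 0 lower in arterial. Among the first 3 populations 3 were higher and 1 lower in CD200-high against type H, 3 higher and 1 lower in CD200-high against arterial, and 3 higher and 3 lower in type H against arterial. Egfl7, a secreted endothelial matrix protein, was at 494, 617 and 833 CPM in the CD200-high libraries, 935, 1137 and 1046 CPM in type H and 297, 353 and 311 CPM in arterial. Egfl7 was at 14.8, 16.6 and 15.3 CPM in those labelled sinusoidal. It was highest in type H and lowest in the libraries labelled sinusoidal, with no overlap between any populations. Col4a1 and Col4a2, the chains of the collagen IV that nidogens bind, followed. Col4a1 was at 954, 1171 and 1419.5 CPM in the CD200-high libraries, 874, 971 and 889 CPM in type H and 498, 674 and 513 CPM in arterial. Col4a1 was at 17.6, 17.5 and 26.4 CPM in those labelled sinusoidal. Col4a2 averaged 9.71 ± 0.19 log2 CPM in CD200-high libraries, 9.43 ± 0.25 in those of type H, 8.58 ± 0.25 in the arterial ones and 2.89 ± 1.26 in those labelled sinusoidal (SD, n = 3 each). Both were low in the libraries labelled sinusoidal, as Lama4, Lama5 and the nidogens were.

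Of 18 integrin ligands, 15 passed the F test, and they split by population. CD200-high against type H had 6 higher (Fn1, Spp1, Ibsp, Tnc, Thbs1, Postn) and 5 lower (Vcam1, Icam1, Icam2, Madcam1, Mfge8): the higher ones are matrix proteins, among them products of osteoblasts, and 4 of the lower ones are endothelial counter-receptors for leukocyte integrins. Type H against arterial had 7 higher and 8 lower, and CD200-high against arterial 3 higher and 1 lower. Compared with the libraries labelled sinusoidal, 10 were higher and 1 lower in CD200-high, 7 higher and 5 lower in type H, and 6 higher and 0 lower in arterial. Mfge8, a ligand of alphav integrins, was at 243, 200.4 and 210.0 CPM in the CD200-high libraries, 551, 455 and 455 CPM in type H and 138, 187 and 170.4 CPM in arterial. Mfge8 was at 42.4, 45.5 and 37.1 CPM in those labelled sinusoidal. Icam2, a ligand of the alphaL-beta2 integrin, was at 157, 161 and 179 CPM in the CD200-high libraries, 306, 323 and 294 CPM in type H and 78.9, 83.4 and 85.95 CPM in arterial. Icam2 was at 63.7, 58.5 and 57.9 CPM in those labelled sinusoidal. Both Mfge8 and Icam2 were highest in type H. Itgal and Itgb2, which encode the alphaL-beta2 integrin, were low in type H and in CD200-high alike. Vcam1, the ligand of alpha4 and alpha9, was at 32.5, 62.7 and 33.8 CPM in the CD200-high libraries, 903, 612 and 774 CPM in type H and 255, 492 and 402 CPM in arterial. Vcam1 was at 35.6, 47.7 and 34.2 CPM in those labelled sinusoidal. It was high in type H and arterial libraries and low in the other 2 populations.

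Of 29 adaptors and activators, which link integrin tails to actin, 20 passed the F test. CD200-high against type H had 1 higher and 3 lower, a share near the 13.0% called over all genes. CD200-high against arterial had 3 higher and 7 lower, and type H against arterial 4 higher and 6 lower. Against the libraries labelled sinusoidal, 7 were higher and 9 lower in CD200-high, 9 higher and 8 lower in type H, and 7 higher and 1 lower in arterial. Parva, which encodes the parvin of most tissues, averaged 7.69 ± 0.53 log2 CPM in CD200-high libraries, 8.06 ± 0.31 in those of type H, 7.14 ± 0.64 in the arterial ones and 3.08 ± 0.44 in those labelled sinusoidal (SD, n = 3 each). Tns2, a tensin, averaged 6.40 ± 0.28, 8.01 ± 0.17, 5.42 ± 0.68 and 1.59 ± 0.93 in the same order. Fermt3, the kindlin of blood cells, ran the other way, at 13.5, 19.4 and 13.6 CPM in the CD200-high libraries, 6.11, 17.8 and 23.5 CPM in type H and 169.7, 158 and 139 CPM in arterial. Fermt3 was at 349, 361 and 341 CPM in those labelled sinusoidal. It was high in the same libraries as Itgb3 and Itga2b, and low in CD200-high and type H.

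Of 6 laminin receptors outside the integrins, 4 passed the F test. In CD200-high 2 were higher and 0 lower against type H, 0 passed against arterial (limma; adjusted p under 0.05), and 4 were higher and 0 lower against the libraries labelled sinusoidal. Type H had 1 higher and 1 lower against arterial and 3 higher and 0 lower against the libraries labelled sinusoidal, and arterial 3 higher and 0 lower against those libraries. Bcam, a receptor for the alpha5 laminin chain, was at 42.1, 57.3 and 86.9 CPM in the CD200-high libraries, 11.3, 6.496 and 7.37 CPM in type H and 19.3, 23.6 and 27.8 CPM in arterial. Bcam was at 0.278, 0 and 0.244 CPM in those labelled sinusoidal. It had its highest mean in CD200-high, but the differences from type H and arterial did not pass. These were 2.86 ± 0.95 log2 (limma adjusted p = 0.0718) and 1.35 ± 0.95 log2 (adjusted p = 0.395). Bcam was nearly undetected in the libraries labelled sinusoidal, where Lama5 was also low. Dag1, which encodes dystroglycan, averaged 8.37 ± 0.32 log2 CPM in CD200-high libraries, 7.25 ± 0.81 in those of type H, 7.74 ± 0.13 in the arterial ones and 6.14 ± 0.37 in those labelled sinusoidal (SD, n = 3 each). Sgce, a sarcoglycan of the dystroglycan complex, averaged 5.39 ± 0.28, 3.98 ± 0.04, 5.24 ± 0.45 and 3.58 ± 0.51 in the same order.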

How the data were processed

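RNA-seq libraries of 4 populations (3 each) were given as 1 table of log2 values. The authors deposited log2 CPM with 0.5 read added and their own library factors: whole reads were recovered from every value (tolerance 0.01 read). Per the submitters' processing notes, Trimmomatic, STAR, SAMtools, deepTools, featureCounts and R 4.3 were used and the build named is hg38, although the samples are mouse; settings and strandedness are not given in the sources used here. Such counting can split reads between overlapping genes.

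A gene was kept where 3 or more libraries reached 0.63 CPM, which is 10 reads in a library of 15.9 M reads, the mean size (276 of 17362 removed). All 12 libraries entered 1 limma 3.58.1 fit (R 4.3.3) with a mean-variance trend and 8 residual degrees of freedom, and p-values were adjusted by the Benjamini-Hochberg method within each of 6 comparisons. The fit was tested on simulated data in which only genes with ample reads were changed and all genes had the same dispersion. That test does not cover members with few or no reads or with wide spread between replicates. Lengths are exon unions of GENCODE M21 (GRCm38). Depth was 7.33 to 21.6 M reads, and precision is limited by 3 libraries per population.

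The members and lists were chosen with earlier results of these data known. Members that passed any test have all values or means given, and the 3 genes with the smallest F test p represent each other list. Alternatives were no filter, a pseudocount of 1 CPM, 3 other scalings, voom weights, no trend, fits of only the populations compared, the mouse number as a block, each library left out, and no labelled sinusoidal libraries. Mouse numbers 1 to 3 recur in all populations; deviations of same-numbered libraries correlated at -0.04 to 0.06 (18 pairs, 12158 genes, 0 pairs over 0.1), and the numbers were not taken to pair libraries. The values of 1 member are not reported here, although it is counted in the totals.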

Additional observations from a re-analysis of the deposited data

How the results depend on the processing

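Of 85 called differences, 64 kept their call without each library in turn. Lost calls numbered 8 without the trend, 7 in fits of only the populations compared, 5 with quantile normalisation, 4 by total reads, 2 with voom weights, 2 with a pseudocount of 1 CPM, 0 without the filter and, of the 30 not involving the libraries labelled sinusoidal, 4 without those libraries; none of these reversed. Lost without the trend were Itgad, Itgb1 (CD200-high over arterial), Itga4, Itgb2 (CD200-high over labelled sinusoidal), Itgb1 (CD200-high over type H), Itga5, Itgam (arterial over labelled sinusoidal) and Itgam (type H over labelled sinusoidal), at adjusted p = 0.0508 to 0.111. Lost in fits of only the populations compared were Itgad (CD200-high over arterial), Itga4, Lamb3 (CD200-high over labelled sinusoidal), Itgb1 (CD200-high over type H), Itga2b, Itgal (type H over arterial) and Itgal (type H over labelled sinusoidal), at adjusted p = 0.0501 to 0.129. Lost with quantile normalisation were Itgad, Itgb1 (CD200-high over arterial), Itgax (arterial over labelled sinusoidal), Itgax (type H over arterial) and Itgad (type H over labelled sinusoidal), at adjusted p = 0.0716 to 0.13. Lost by total reads were Itgb1 (CD200-high over arterial), Itgav (CD200-high over labelled sinusoidal) and Itga5, Itgam (arterial over labelled sinusoidal), at adjusted p = 0.0501 to 0.0928. Lost with voom weights were Itgb3 (CD200-high over arterial) and Itgav (CD200-high over labelled sinusoidal), at adjusted p = 0.0504 to 0.091. Lost with a pseudocount of 1 CPM were Itga7, Itgad (type H over labelled sinusoidal), at adjusted p = 0.104 to 0.236. Alternatives also added member calls: 19 with voom weights, 17 with a pseudocount of 1 CPM and 14 in fits of only the populations compared. Quantile normalisation added 5 and total reads 1. Leaving out CD200-high replicate 1, 2 or 3 added 10, 11 and 7. Over all genes, CD200-high over type H called 1337 and arterial over labelled sinusoidal 2829 in fits of only those populations. Members called for CD200-high over arterial numbered 5 without the libraries labelled sinusoidal, and the F test over all genes then called 3609. Leaving out 1 library gave 4 to 8 members and 1353 to 2458 genes for CD200-high over arterial, and 1019 to 1870 genes for arterial over labelled sinusoidal.

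Scaling to equal pan-endothelial markers, whose median shifts of all genes ran from -5.46 to 0.75 log2, called 18 members and 8401 genes for CD200-high over arterial, 24 and 12036 for type H over arterial, 14406 genes for CD200-high, 15375 for type H and 11901 for arterial over labelled sinusoidal, and 15528 by the F test. It lost 10 calls, reversed 24 and added 63. Among the members that had not passed the F test, Itga2, Itga4, Itga6, Itga8, Itgb4, Itgb7, Lama2 and Lamc3 then did. For CD200-high over arterial the reversed values were Itgb1 -0.64. For CD200-high over labelled sinusoidal the reversed values were Itga1 -0.16, Itga10 -0.72, Itga11 -1.50, Itga5 -3.29, Itgav -3.12, Itgb1 -2.72, Lamb2 -1.57, Lamc1 -2.35, Nid1 -0.62. For arterial over labelled sinusoidal the reversed values were Itga5 -2.24, Itgam -1.69, Itgav -0.82, Itgb1 -2.08, Lamb2 -0.71, Lamc1 -0.54. For type H over arterial the reversed values were Itga5 -0.53, Nid1 -0.33. For type H over labelled sinusoidal the reversed values were Itga5 -2.77, Itgb1 -4.50, Lama4 -0.84, Lamb1 -0.54, Lamb2 -3.22, Lamc1 -2.43. The cause was not tested.

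By reads in place of reads per length, Lamb2 held 66.6% (CD200-high), 62.4% (type H) and 51.3% (arterial) of laminin beta, and Itgb3 72.6% of integrin beta in the libraries labelled sinusoidal. With the mouse number as a replicate block, the members called were 8, 7, 21, 15, 20 and 14 (CD200-high over type H, over arterial and over labelled sinusoidal, type H over arterial and over labelled sinusoidal, and arterial over labelled sinusoidal): Itgad was lost in CD200-high over arterial and Itga2 gained in type H over arterial. Differences of members at 0 reads depend on the pseudocount, and the fold bounds against them on depth. Type H libraries, where several members had no reads at all, held 16.2 to 20.2 M reads. Genes of the table at 0 reads numbered 2178 to 3172 per type H library and 2517 to 2827 per CD200-high library. They numbered 793 to 1428 in arterial and 1236 to 1542 in labelled sinusoidal libraries. The fold bounds hold for the reads counted and do not allow for such differences between libraries. The part of depth in the 0 reads was not tested.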
